A study of Mus musculus with 16 samples.

Results

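The *gastrocnemius* muscle of HSALR mice was compared with that of control mice after vehicle treatment, across all genes. The 8 mice were chosen by their labels, genotype HSA transgene (n = 5) or FVB/N (n = 3) with the vehicle treatment, out of 16 mice that were sequenced, and all were 3 months old. HSALR mice are of the homozygous line LR20b on the FVB/N background and carry a human skeletal actin transgene with a long CTG repeat, which is expressed in skeletal muscle and not in other tissues. Control mice were FVB/N mice without the transgene, and neither group had received AICAR. HSALR is 1 transgenic line, so effects of the repeat, of the insertion site and of the line's breeding cannot be told apart here, and the human transcript has no entry in the count table. The other 8 mice, 5 HSALR and 3 control, had received AICAR, an activator of AMP-activated protein kinase, at 500 mg/kg for 7 days and were used here for the estimate of the spread between mice and for a comparison of the genotypes in other animals.

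RNA with expanded CUG repeats forms foci in the nuclei of muscle fibres and binds splicing regulators of the MBNL family, which are then missing from their targets. In the muscle disease myotonic dystrophy type 1 this leads, among other effects, to mis-splicing of the muscle chloride channel and to myotonia, a delayed relaxation after contraction. The *gastrocnemius* of the mouse is a mixed muscle dominated by fast glycolytic fibres, and besides fibres it holds satellite cells, vessels, nerve, fat and connective tissue.

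Between 64890014 and 78780617 reads were counted per vehicle-treated mouse, and levels are given as normalized CPM, counts per 1000000 of the TMM-scaled library total. Log2 fold changes (HSALR over control), their standard errors (SE) and adjusted p-values come from edgeR's quasi-likelihood test over all 15487 genes that passed the filter on low counts, and a gene is said to have risen or fallen where its adjusted p was under 0.05. By this rule 4169 genes (26.9%) differed, 2385 of them (15.4% of all tested) higher and 1784 (11.5%) lower in HSALR muscle, and the groups of mice did not overlap in 3611 of the 4169. Without control mouse S445 the number that fell was 1095. Most differences were small. Of the genes called, 65.8% differed by less than 1.5-fold, while 504 rose and 166 fell by 2-fold or more. The median transcript length was 2095 bases for the genes that rose, 4016 for those that fell and 2883 for all tested. The part of length in these counts is given below for some of the lists in which it changed a count, and not for all. In bulk muscle, fewer cells of a type and less RNA per cell cannot be told apart.

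The tissue label held against muscle markers. The 10 genes with the most counts per base in control muscle were all genes of skeletal muscle fibres, most of them typical of fast fibres: *Acta1*, *Ckm*, *Tnnt3*, *Mylpf*, *Tnnc2*, *Atp2a1*, *Tnni2*, *Myh4*, *Pvalb* and *Aldoa*. Of these only *Acta1*, the skeletal muscle actin, rose, from 29229, 31273 and 26552 normalized CPM in the control mice to 36383, 35105, 33586, 37594 and 37705 in the HSALR mice (log2 fold change 0.31, SE 0.08, adjusted p = 0.0079). The transgene is a skeletal actin gene of another species, and whether its reads were counted on *Acta1* was not tested. Among 15 genes of type IIB fibres and the fast sarcomere, none rose and 1 fell, *Mylk2*, the kinase of the fast regulatory light chain (log2 fold change -0.48, adjusted p = 0.022). That call was not kept without control mouse S445 (adjusted p = 0.051) or S446 (adjusted p = 0.13), or on the 8 vehicle-treated mice alone (adjusted p = 0.065). The median of the 15 was -0.03, beside 0.01 for all genes tested. The number that fell was 4 without control mouse S450, 3 with DESeq2, with library-size scaling and with the length trend removed, and 0 without control mouse S445 or S446 and in the fit on the 8 vehicle-treated mice alone, and 1 gene of the list was called higher with library-size scaling. *Tnnt3*, the fast troponin T, was just short of the threshold (log2 fold change -0.21, adjusted p = 0.051) and was called lower in 8 alternatives.

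The mixture of fast myosin heavy chains did change. *Myh1*, which encodes the heavy chain of type IIX fibres, was at 5408, 4230 and 3513 normalized CPM in control mice and at 17612, 10030, 12338, 9473 and 13369 in HSALR mice. All HSALR mice lay well above all control mice, with a log2 fold change of 1.52 (SE 0.19, adjusted p = 4.1e-05). Counted per base, *Myh1* made up 7.81% ± 1.25 (SD, n = 3) of the transcripts of the 4 adult heavy chains in control muscle and 24.3% ± 7.64 (SD, n = 5) in HSALR muscle. This difference of 16.5 percentage points had p = 0.018 in the two-sided exact permutation test, the smallest that 5 mice against 3 allow, and 0.036 after Benjamini-Hochberg adjustment over the 4 chains. The share of *Myh4*, the type IIB chain, was 80.4% ± 4.83 (SD, n = 3) in controls and 67.7% ± 8.55 (SD, n = 5) in HSALR mice (exact permutation test, adjusted p = 0.048). The 4 shares sum to 100%, so a higher share of 1 chain lowers the others, and the level of *Myh4* itself was not called (log2 fold change -0.34, adjusted p = 0.19). HSALR mouse S451 had the lowest *Myh4* share, 52.7%, and the highest *Myh1* share, 37.4%. The share of *Myh2*, the type IIA chain, was 6.80% ± 1.91 (SD, n = 3) and 6.00% ± 1.25 (SD, n = 5) and the test did not separate the groups (exact permutation test, adjusted p = 0.48). The share of *Myh7*, the slow chain, was 2.56%, 2.69% and 9.84% in the control mice and between 1.63% and 2.43% in the HSALR mice (exact permutation test, adjusted p = 0.036), and the difference of -3.07 percentage points was -0.67 without control mouse S450. The heavy chain genes of the cluster on chromosome 11 are similar in sequence, so reads could be split between them.

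**Figure D1:**
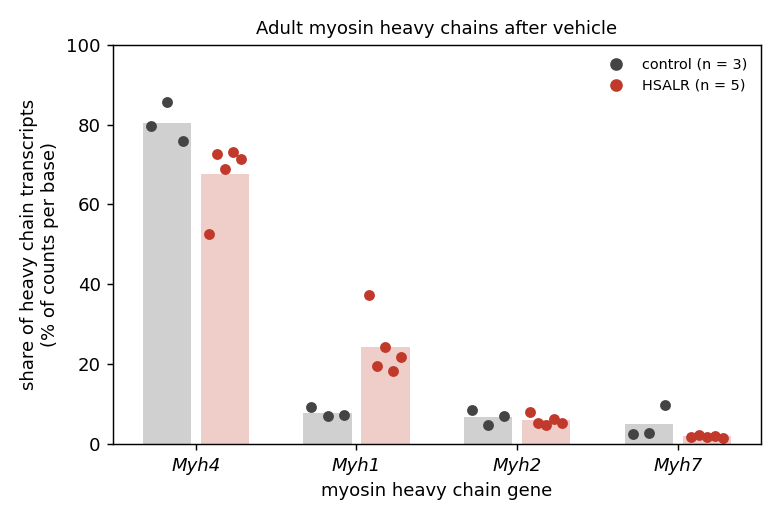
Share of the adult myosin heavy chain transcripts taken by *Myh4*, *Myh1*, *Myh2* and *Myh7* in each vehicle-treated mouse, in percent of the counts per base of the 4 genes; points are mice and bars are group means. The 5 HSALR mice lie between 18.4% and 37.4% for *Myh1*, above the 3 control mice at 6.96% to 9.24%, and 1 control mouse stands at 9.84% for *Myh7*.

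Genes of slow fibres did not move as a block. Of the 20 in the list, 8 fell (40% beside 11.5% of all genes) and 4 rose (20% beside 15.4%), with a median log2 fold change of -0.91. The 8 that fell belong to the slow contractile and calcium-storage apparatus, among them *Myh7*, the slow heavy chain, *Myh7b*, *Myl6b*, *Tpm3* and *Atp2a2*, the slow calcium pump. *Myh7* was at 1506, 1647 and 4812 normalized CPM in control mice and at 888, 1243, 889, 1091 and 1011 in HSALR mice (log2 fold change -1.37, SE 0.36, adjusted p = 0.011). *Tpm3*, the slow tropomyosin, was at 435, 460 and 1448 in control mice and at 320, 446.7, 311, 387 and 315 in HSALR mice. In both genes the high value belongs to control mouse S450, and the other 2 control mice were much closer to the HSALR mice. Without S450 none of the 20 fell and 6 rose, with a median of -0.19, and *Myh7* had an adjusted p of 0.17. The calls of the 8 genes therefore depended on 1 control mouse. Over all 19 alternatives 0 to 11 genes of the list fell and 4 to 6 rose. The direction without S450 was still downward in the genes named here: the log2 fold change was -0.62 for *Myh7* and -0.80 for *Myh7b* (adjusted p = 0.096), in both of which the other 2 control mice lay above all 5 HSALR mice, and -0.17 for *Myl6b* and -0.33 for both *Tpm3* and *Atp2a2*.

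The 4 slow-list genes that rose did so in every HSALR mouse. *Sln* encodes sarcolipin, a small inhibitor of the sarcoplasmic calcium pump, and was at 14.1, 12.8 and 27.9 normalized CPM in control mice. In HSALR mice it was at 326, 142, 225, 252 and 343, so that the lowest HSALR mouse was far above the highest control mouse (log2 fold change 3.82, SE 0.42, adjusted p = 1.3e-05). *Csrp3*, a Z-disc protein that responds to stretch, was at 77.8, 140 and 189 in control mice and at 435, 376, 332, 300 and 318 in HSALR mice (log2 fold change 1.38, SE 0.33). *Fhl1*, a LIM protein of the sarcomere, rose by 0.99 on the log2 scale and *Mb*, the oxygen store myoglobin, by 0.79. *Mb* was at 4626, 2781 and 4980 in control mice and between 6702 and 7661 in HSALR mice.

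**Figure D2:**
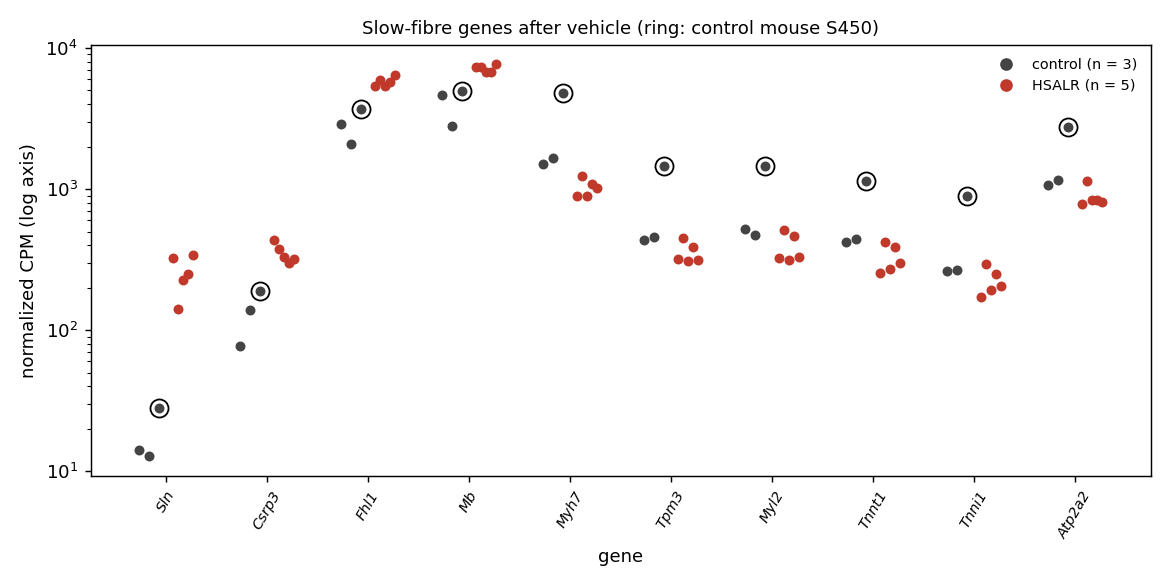
Normalized CPM (log axis) of 10 slow-fibre genes in each of the 3 control and 5 HSALR mice after vehicle, with control mouse S450 marked by a ring. *Sln*, *Csrp3*, *Fhl1* and *Mb* are higher in all HSALR mice, while for *Myh7*, *Tpm3*, *Myl2*, *Tnnt1*, *Tnni1* and *Atp2a2* the ringed control mouse stands above all other mice.

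Of 15 genes of embryonic and regenerating muscle 7 rose (46.7% beside 15.4% of all genes) and 2 fell (13.3% beside 11.5%), with a median of 0.65. Over the 19 alternatives 5 to 7 rose and 1 or 2 fell, and the median was lowest, at 0.30, without control mouse S446. *Actc1*, the cardiac actin of embryonic muscle, had the largest fall of the list, from 140, 159 and 34.1 normalized CPM in control mice to 13.7, 11.5, 11.3, 13.9 and 12.2 in HSALR mice (log2 fold change -3.15, SE 0.32, adjusted p = 5.4e-06). *Mymk* and *Mymx* encode the membrane proteins that drive fusion of myoblasts. *Mymk* was at 0.598, 0.344 and 0.462 normalized CPM in control mice and at 3.67, 2.51, 3.72, 2.46 and 2.84 in HSALR mice (log2 fold change 2.70, SE 0.36, adjusted p = 6.8e-05). *Mymx* was near the detection limit in control mice, at 0.0427, 0.0128 and 0.0679, and was at 3.20, 1.86, 1.85, 1.28 and 1.59 in HSALR mice. *Myl4*, the embryonic essential light chain, rose by 1.82 on the log2 scale and *Ncam1*, an adhesion molecule of immature and denervated fibres, rose from between 13.7 and 24.0 normalized CPM in control mice to between 32.2 and 55.4 in HSALR mice. The embryonic heavy chain *Myh3* (log2 fold change -0.21, adjusted p = 0.69) and the neonatal chain *Myh8* (-0.07, adjusted p = 0.77) did not pass the test, and their groups of mice overlapped. The sign of *Myh3* turned without control mouse S450, to 0.64 (adjusted p = 0.063), and with limma, to 0.0333.

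Of 15 satellite cell markers 3 rose and 2 fell, shares of 20% and 13.3% that lie near the 15.4% and 11.5% of all genes, with a median of 0.22. *Pax7*, the transcription factor that defines satellite cells, was at 1.08, 0.842 and 1.02 normalized CPM in control mice and at 1.74, 2.24, 1.87, 1.85 and 2.31 in HSALR mice (log2 fold change 1.03, SE 0.22, adjusted p = 0.0029). *Fgfr4*, a receptor of activated satellite cells and regenerating fibres, rose by 1.27. *Notch3*, a receptor shared by satellite cells and mural cells, fell by 0.38, and *Myf5* (log2 fold change 0.30) and *Calcr* (0.95), a marker of quiescence, did not pass the test. Of 22 cell cycle genes 2 rose and 1 fell (9.09% and 4.55%), with a median of 0.42 and 19 log2 fold changes above 0. At low levels, *Birc5*, which encodes the mitotic protein survivin, was at 0.185, 0.281 and 0.231 normalized CPM in control mice and at 1.13, 0.816, 0.890, 0.792 and 0.786 in HSALR mice (log2 fold change 1.91, SE 0.22, adjusted p = 2.0e-05). *Kif11*, a spindle motor, rose by 1.28 (adjusted p = 0.0028) and *Tpx2*, a spindle protein, fell by 1.29, while the proliferation marker *Mki67* was not called (log2 fold change 0.35, adjusted p = 0.40).

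Of 28 genes of the endplate and of denervated muscle 9 rose (32.1% beside 15.4% of all genes) and 4 fell (14.3% beside 11.5%), with a median of 0.31. Log2 fold changes in the list ran from -1.24 to 2.54, and the 4 genes that fell are not described in this paragraph. *Runx1*, a transcription factor that rises in denervated muscle, was at 3.51, 4.45 and 4.99 normalized CPM in control mice and at 29.3, 31.7, 28.3, 17.1 and 19.1 in HSALR mice (log2 fold change 2.54, SE 0.29, adjusted p = 1.9e-05). *Gadd45a*, a stress gene that also rises after denervation, was at 19.5, 15.9 and 24.0 in control mice and between 40.4 and 62.7 in HSALR mice. Of 30 genes of atrophy and muscle ubiquitin ligases, 7 rose and 7 fell (23.3% each, beside 15.4% and 11.5% of all genes). *Runx1* and *Gadd45a* are in this list too, so their rises are counted in both. *Eda2r*, a receptor of the tumour necrosis factor family, was the member with the largest rise, from 22.6, 25.5 and 29.8 to 243, 230, 218, 152 and 179 (log2 fold change 2.98, SE 0.23, adjusted p = 5.2e-07). *Klhl40* and *Klhl41*, adaptor proteins that stabilize thin-filament proteins, rose by 1.11 and 0.95. The ligases most used as atrophy markers were not called: *Trim63*, which encodes MuRF1, had a log2 fold change of 0.14 (adjusted p = 0.78) and *Fbxo32*, which encodes atrogin-1, one of -0.73 (adjusted p = 0.066). *Fbxo32* was called lower in the fit on the 8 vehicle-treated mice alone (adjusted p = 0.027) and without HSALR mouse S451 (adjusted p = 0.0496).

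In the list of 44 sarcolemmal and Z-disc genes, 11 rose (25% beside 15.4% of all genes) and 6 fell, with a median of 0.05. *Xirp1*, an actin-binding protein found at sites of fibre damage, was at 139, 236 and 209 normalized CPM in control mice and at 1032, 996, 801, 585 and 600 in HSALR mice (log2 fold change 2.04, SE 0.31, adjusted p = 1.9e-04). *Flnc*, the muscle filamin, was at 727, 943 and 793 and at 2439, 2550, 2074, 1820 and 1888. *Pdlim3* rose by 1.21 and *Sntb1*, a dystrophin-associated syntrophin, by 1.68, while *Pdlim7*, a further Z-disc protein, fell by 1.41. *Ttn*, the giant elastic protein titin, was at 15804, 15164 and 11110 in control mice and between 6048 and 9265 in HSALR mice (log2 fold change -0.78, SE 0.23, adjusted p = 0.022), and with the length trend removed its log2 fold change was -0.21 (adjusted p = 0.12). It was also not called without control mouse S445 (adjusted p = 0.093) or S446 (adjusted p = 0.071), or with the epidermal covariate (adjusted p = 0.097).

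Simple keratins, which are rare in adult muscle, and a non-muscle tubulin rose. Of 32 tested genes of non-muscle actins, tubulins and keratins, 9 rose (28.1% beside 15.4% of all genes) and 1 fell (3.13% beside 11.5%), and 6 rose without control mouse S445 and in the fit on the 8 vehicle-treated mice alone. *Krt18* was at 0.285, 0.395 and 0.217 normalized CPM in control mice and at 36.5, 25.9, 23.1, 10.6 and 19.1 in HSALR mice, and its partner *Krt8* behaved alike (log2 fold changes 6.25 and 6.76). *Tubb6*, a beta tubulin of regenerating and dystrophic fibres, was at 13.5, 20.3 and 19.04 and rose to between 68.8 and 84.4. The samples also held varying amounts of epidermal transcripts: the summed level of 14 skin markers was 14.5, 16.6 and 189 normalized CPM in the control mice and 31.4, 97.0, 391, 56.9 and 156 in the HSALR mice. The control mouse with 189 had 0.217 of *Krt18* and 0.122 of *Krt8*, and with the epidermal sum as a covariate *Krt18* had a log2 fold change of 6.20. All 14 skin markers had log2 fold changes above 0, from 0.56 to 1.29 with a median of 1.04, which was -0.02 without HSALR mouse S453 and 5.81 without control mouse S450. Only *Trp63* (1.22) of the 14 was called, and it was not called without control mouse S445 (adjusted p = 0.069) or S446 (adjusted p = 0.0506). Beyond the covariate fit, the part of skin in the other keratin values was not tested.

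Of 38 genes of protein folding and endoplasmic reticulum stress, 19 rose, 18 were not called and 1 fell, beside 15.4% of all genes higher, with a median of 0.28. Among those not called were the chaperones *Hspd1* (log2 fold change 0.15, adjusted p = 0.092), *Hsph1* (0.10, adjusted p = 0.59) and *Dnaja1* (0.20, adjusted p = 0.26). *Hspb1* was at 41.4, 58.6 and 67.7 normalized CPM in control mice and at 247, 256, 216, 217 and 165 in HSALR mice (log2 fold change 1.98, SE 0.18, adjusted p = 2.5e-06). *Hspb8*, which works with the co-chaperone *Bag3* in clearing damaged Z-disc proteins, was at 430, 445.8 and 433 and at 1268, 1269, 1215, 999 and 1065 (log2 fold change 1.42, SE 0.14). *Hspb7*, *Hspb3*, *Hspb6* and *Bag3* rose by 1.10, 0.90, 0.81 and 0.56 on the log2 scale, and in each of them all HSALR mice were above all control mice. The inducible pair *Hspa1a* and *Hspa1b* varied far more between HSALR mice. *Hspa1a* was at 101, 51.4, 31.8, 17.1 and 16.0 against 4.48, 9.26 and 10.9 in control mice (log2 fold change 2.40, SE 0.61, adjusted p = 0.0085). The 2 genes are nearly identical, so their reads could be split, and *Hspa1b* was not called without control mouse S445 (adjusted p = 0.052). Of the endoplasmic reticulum, the chaperone *Hspa5* rose by 0.58 and the transcription factor *Xbp1* by 0.78, while *Ddit3* (log2 fold change 0.47, adjusted p = 0.077) and *Trib3* (0.14, adjusted p = 0.76) did not pass the test. *Chac1*, which degrades glutathione, was the member that fell, from 29.4, 35.7 and 86.6 to 6.43, 3.30, 12.5, 14.5 and 25.2, and without control mouse S450 it had an adjusted p of 0.093.

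The promoters of some of these genes are shown because 19 members of the list rose. RefSeq promoter windows of GRCm38.p6, from 250 bases before to 50 after the gene start, were found for 32 of the 38 genes and for 12103 of the 15487 genes tested. The 2-unit heat shock element, GAANNTTC or TTCNNGAA, each its own reverse complement, was in the promoters of 13 of the 32 genes, 9 of the 16 that rose and 4 of the other 16, beside 14.1% of all genes tested, 15.2% of the genes that rose and 14.0% of those that fell. The longer 3-unit heat shock element, which contains the shorter one, was in 3 of the 32, 1 of the 16 that rose and 2 of the other 16, and in 0.595% of all, and the AP-1 motif TGANTCA was in 3 of the 32 and in 6.78% of all. These are not all separate promoters. *Hspe1*, which rose (log2 fold change 0.17) but was not called with the length trend removed or without control mouse S450, and *Hspd1*, which was not called, are read in opposite directions from windows that share most of their bases and all of their elements, so that stretch is counted on both sides of the split, and the windows of *Hspa1a* and *Hspa1b*, which both rose, are nearly identical. The windows of 4 members that rose follow on the strand of the gene, with the 2-unit element in capitals.
Hspb1, chr5:135887669-135887968, plus strand: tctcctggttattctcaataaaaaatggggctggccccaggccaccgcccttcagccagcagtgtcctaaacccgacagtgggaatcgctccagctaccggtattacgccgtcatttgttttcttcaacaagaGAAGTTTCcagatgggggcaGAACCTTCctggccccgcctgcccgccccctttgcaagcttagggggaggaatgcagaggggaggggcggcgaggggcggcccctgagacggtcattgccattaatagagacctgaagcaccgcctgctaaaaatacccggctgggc
Hspb6, chr7:30553051-30553350, plus strand: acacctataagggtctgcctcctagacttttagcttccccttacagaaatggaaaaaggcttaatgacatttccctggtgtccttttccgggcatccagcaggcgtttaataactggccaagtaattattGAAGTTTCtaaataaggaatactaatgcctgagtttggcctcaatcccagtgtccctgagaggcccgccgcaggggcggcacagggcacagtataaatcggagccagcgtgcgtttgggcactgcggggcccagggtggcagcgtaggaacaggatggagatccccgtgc
Hspb8, chr5:116422815-116423114, minus strand: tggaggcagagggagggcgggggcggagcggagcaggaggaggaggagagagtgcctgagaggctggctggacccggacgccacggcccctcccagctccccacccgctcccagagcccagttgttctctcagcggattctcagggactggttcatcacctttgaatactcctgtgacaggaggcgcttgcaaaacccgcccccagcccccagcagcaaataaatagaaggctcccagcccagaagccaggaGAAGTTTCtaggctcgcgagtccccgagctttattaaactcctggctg
Hspa1a, chr17:34972107-34972406, minus strand: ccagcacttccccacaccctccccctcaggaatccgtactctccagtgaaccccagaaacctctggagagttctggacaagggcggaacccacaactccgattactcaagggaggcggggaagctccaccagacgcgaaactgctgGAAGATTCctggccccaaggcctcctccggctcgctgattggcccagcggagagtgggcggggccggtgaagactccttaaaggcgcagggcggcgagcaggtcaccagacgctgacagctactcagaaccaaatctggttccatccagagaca
In *Hspb1* the element occurs at 2 places, and in the other 3 windows at 1. A match is a description of the letters and not of a factor bound there.

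Genes of the ribosomes and of the proteasome were called higher far more often than lower. Of 82 tested genes of the cytosolic ribosome 65 rose and none fell, with a median of 0.30. Of 78 genes of the mitochondrial ribosome 44 rose and none fell (median 0.19), and of 37 tested proteasome subunits 21 rose and none fell (median 0.19). The shares higher, 79.3%, 56.4% and 56.8%, stood against 15.4% of all genes. Single members ranged from -0.15 to 1.14 on the log2 scale in the cytosolic set, from -0.53 to 0.62 in the mitochondrial set and from -0.46 to 0.75 in the proteasome set. *Rplp0*, a stalk protein of the large subunit, was at 577, 542 and 599 normalized CPM in control mice and at 631, 693, 658, 679 and 679 in HSALR mice (log2 fold change 0.22, SE 0.06, adjusted p = 0.0077, and 0.098 with the length trend removed). *Mrpl48* was at 18.5, 19.01 and 18.5 and at 24.9, 25.7, 23.7, 27.7 and 27.1 (log2 fold change 0.47, SE 0.05). These transcripts are short. With each library's trend on transcript length removed, 34 of the cytosolic set rose and 1 fell (median 0.15), 17 of the mitochondrial set rose and 5 fell (0.07), and 10 of the proteasome set rose and none fell (0.08). In the list of 33 autophagy and lysosome genes 8 rose (24.2%) and 4 fell (12.1%), and 4 rose with the length trend removed and 3 without control mouse S445 or S450. Many ribosomal protein genes have near-identical pseudogenes, so that their counts are uncertain.

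In the list of 36 genes of glycolysis and glycogen, 6 rose (16.7% beside 15.4% of all genes) and 7 fell (19.4% beside 11.5%), with a median of -0.07; over the alternatives 1 to 7 rose and 3 to 9 fell. *Pfkfb3*, which makes the activator of phosphofructokinase, was the member with the largest fall, from 445.4, 504 and 649 normalized CPM to 90.5, 140, 122, 42.2 and 115 (log2 fold change -2.39, SE 0.35, adjusted p = 1.6e-04). Other genes of the same enzyme family in the list were called higher, by 0.84 each. *Gpd2*, of the glycerophosphate shuttle, was at 305, 339 and 231 and at 158, 186, 181, 146 and 178, and *Ppp1r3a*, the muscle glycogen-targeting subunit of protein phosphatase 1, fell by 0.52. *Fbp2*, the muscle fructose bisphosphatase, rose by 1.27, although the lowest HSALR mouse, at 34.9, lay within the control range of 13.6 to 35.7. Without control mouse S450 the list had 1 higher and 7 lower genes, and without S445 it had 3 of each.

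Of 32 genes of fatty acid uptake and oxidation 7 fell (21.9% beside 11.5% of all genes) and 1 rose, with a median of -0.22, and 5 of the 32 had a log2 fold change above 0. *Slc27a1*, a fatty acid transporter, fell by 0.48, a call that was lost without control mouse S445 (adjusted p = 0.094), while *Ucp2*, a mitochondrial carrier, rose from 20.4, 26.2 and 23.4 to 49.8, 50.7, 62.7, 80.1 and 75.9 (log2 fold change 1.45, SE 0.18, adjusted p = 3.2e-05). The number of these genes that fell was between 1 (without control mouse S445) and 15 (without control mouse S446) when a mouse was left out. Of 22 genes of the citric acid cycle 3 fell (13.6% beside 11.5% of all genes), and none without control mouse S445. Of 76 of the respiratory chain 8 rose and 1 fell (10.5% and 1.32%), with a median of 0.03, and 1 rose in the fit on the 8 vehicle-treated mice alone. That last split depended on length: with the length trend removed, none of the 76 rose and 29 fell. The coactivator *Ppargc1a* was at 52.6, 52.3 and 56.7 in control mice and at 51.9, 86.0, 57.3, 40.6 and 43.7 in HSALR mice (log2 fold change 0.05, adjusted p = 0.90). Of 24 regulators of the oxidative fibre none rose and 2 fell (8.33% beside 11.5% of all genes), and over the alternatives 0 to 2 rose and 0 to 4 fell. Of 19 circadian clock genes none rose and 2 fell (10.5%), with 0 or 1 higher and 0 to 2 lower over the alternatives.

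Of 25 genes of polyamines and purine nucleotides 5 rose (20% beside 15.4% of all genes) and 6 fell (24% beside 11.5%). *Odc1*, the first and limiting enzyme of polyamine synthesis, was at 58.9, 75.1 and 56.5 normalized CPM in control mice and at 124, 129, 135, 118 and 142 in HSALR mice (log2 fold change 1.03, SE 0.12, adjusted p = 3.0e-05). *Azin1*, which protects this enzyme from degradation, rose by 0.96. *Amd1*, whose product supplies the aminopropyl groups, fell from 153, 156 and 162 to 76.3, 82.8, 96.7, 75.3 and 72.2 (log2 fold change -0.96, SE 0.09, adjusted p = 3.0e-06). *Amd2*, a near-identical copy, held the same values, so these are 1 measurement and not 2. Of 22 tested genes of cholesterol synthesis 2 rose (9.09%) and 1 fell (4.55%), and *Hmgcs1*, an early enzyme, had a log2 fold change of -0.09 (adjusted p = 0.51).

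Of 31 channel and pump genes of the fibre membrane 8 fell (25.8% beside 11.5% of all genes) and 5 rose (16.1% beside 15.4%), with a median of -0.20, and over the alternatives 5 to 10 fell and 3 to 6 rose. *Kcnab1*, a beta subunit of voltage-gated potassium channels, was at 76.4, 82.1 and 68.0 normalized CPM in control mice and at 13.9, 16.0, 9.12, 7.59 and 11.3 in HSALR mice (log2 fold change -2.71, SE 0.18, adjusted p = 8.4e-08). *Kcnma1*, the large-conductance calcium-activated potassium channel, fell by 0.71 and *Scn4a*, the muscle sodium channel, by 0.48. *Kcnn3*, a small-conductance calcium-activated potassium channel known from immature and denervated muscle, rose from 7.33, 5.87 and 8.60 to 27.1, 22.4, 24.1, 19.7 and 25.6 (log2 fold change 1.71, SE 0.26). Gene totals do not show which splice forms these are. In the list of 35 genes of the triad and calcium handling 9 rose (25.7% beside 15.4% of all genes) and 4 fell (11.4% beside 11.5%), and 1 fell without control mouse S450. *Cacng1*, the gamma subunit of the muscle calcium channel, rose from 204, 213 and 202 to 321, 377, 412, 422 and 467. *Cav3* and *Bin1*, which shape the transverse tubules, rose by 0.56 and 0.41. *Atp2a2*, described above with the slow genes, fell by 0.92. *Ryr1*, the calcium release channel, was at 5797, 5779 and 5206 in control mice and between 3649 and 4864 in HSALR mice (log2 fold change -0.38, adjusted p = 0.047). That call was lost with the length trend removed (log2 fold change -0.14, adjusted p = 0.27) and in other alternatives.

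Of 33 tested signalling genes with a role in growth, 9 fell (27.3% beside 11.5% of all genes) and 1 rose. *Igfbp5*, a binding protein of insulin-like growth factors and by level the leading gene among those of the list that fell, was at 1186, 1058 and 1259 normalized CPM in control mice and at 386, 290, 534, 526 and 398 in HSALR mice (log2 fold change -1.45, SE 0.16, adjusted p = 9.5e-06). Both activin type II receptors fell, *Acvr2a* from 63.7, 55.0 and 70.5 to 30.1, 29.6, 28.8, 22.4 and 27.4, and *Acvr2b* by 0.73, the latter not with the length trend removed (adjusted p = 0.072). Myostatin, *Mstn*, had a log2 fold change of -0.41 without passing the test (adjusted p = 0.14). Over the alternatives 3 to 9 of the 33 fell, the fewest without control mouse S450. Of 29 genes of the calcineurin and activity response, 5 rose and 3 fell, shares of 17.2% and 10.3% that lie close to the 15.4% and 11.5% of all genes. Among the members that rose, *Atf3*, a stress-induced transcription factor, was at 7.63, 22.3 and 11.2 in control mice and at 208, 255, 146, 102 and 108 in HSALR mice (log2 fold change 3.57, SE 0.46, adjusted p = 4.6e-05). *Atf3* is also counted in the list of protein folding and endoplasmic reticulum stress. *Ankrd1*, a stretch-responsive cofactor of the sarcomere and nucleus, was at 4.71, 11.8 and 23.5 and at 157, 121, 119, 42.6 and 43.9. *Rcan1*, an inhibitor of calcineurin, rose by 0.77, and *Fos* had a log2 fold change of 0.16 (adjusted p = 0.78). *Nr4a2* was called lower (log2 fold change -2.44) through control mouse S446, at 23.9, and had an adjusted p of 0.58 without that mouse.

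Of 18 targets of p53 and genes of cell cycle arrest, 5 rose (27.8% beside 15.4% of all genes) and 2 fell (11.1% beside 11.5%), and over the alternatives 4 to 6 rose and 0 to 3 fell. The lists overlap, and the rises of *Eda2r* and *Cdkn1a* are counted both here and among the atrophy genes. *Phlda3*, a repressor of AKT, was at 35.4, 45.9 and 26.1 normalized CPM in control mice and at 121, 131, 114, 140 and 133 in HSALR mice (log2 fold change 1.84, SE 0.14, adjusted p = 5.2e-07). *Cdkn1a*, the cell cycle inhibitor p21, was at 28.9, 26.3 and 42.3 and at 104, 99.7, 111, 83.1 and 92.6. *Cdkn2a* rose from 0, 0.0383 and 0.0136 to between 0.104 and 0.404, which is close to the detection limit. The groups did not overlap in any of these 3 genes.

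Of 32 tested genes around the MBNL, CELF and RBFOX families of splicing regulators, 7 fell (21.9% beside 11.5% of all genes) and 3 rose. *Celf4* had the largest difference, at a low level, from 0.285, 0.204 and 0.190 normalized CPM in control mice to 1.503, 1.13, 1.44, 1.12 and 1.35 in HSALR mice (log2 fold change 2.52, SE 0.39, adjusted p = 2.6e-04). *Mbnl1*, the main muscle member of its family, was at 502, 462.1 and 492 normalized CPM in control mice and at 386, 454.9, 452.1, 348 and 387 in HSALR mice (log2 fold change -0.26, SE 0.08, adjusted p = 0.029), a call that was lost with the length trend removed (log2 fold change -0.15, adjusted p = 0.18), without control mouse S445 (adjusted p = 0.11) and in 4 other alternatives. *Mbnl2* (-0.13) did not pass the test. *Celf2* fell from 106, 105 and 114 to 66.4, 66.0, 63.6, 51.3 and 52.2, and *Rbfox1* by 0.44. These transcripts are long, and with the length trend removed 3 of the 32 fell; without control mouse S450 the number was also 3. Of 37 SR and hnRNP genes 3 rose and 4 fell, close to the shares of all genes or below them.

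**Figure D3:**
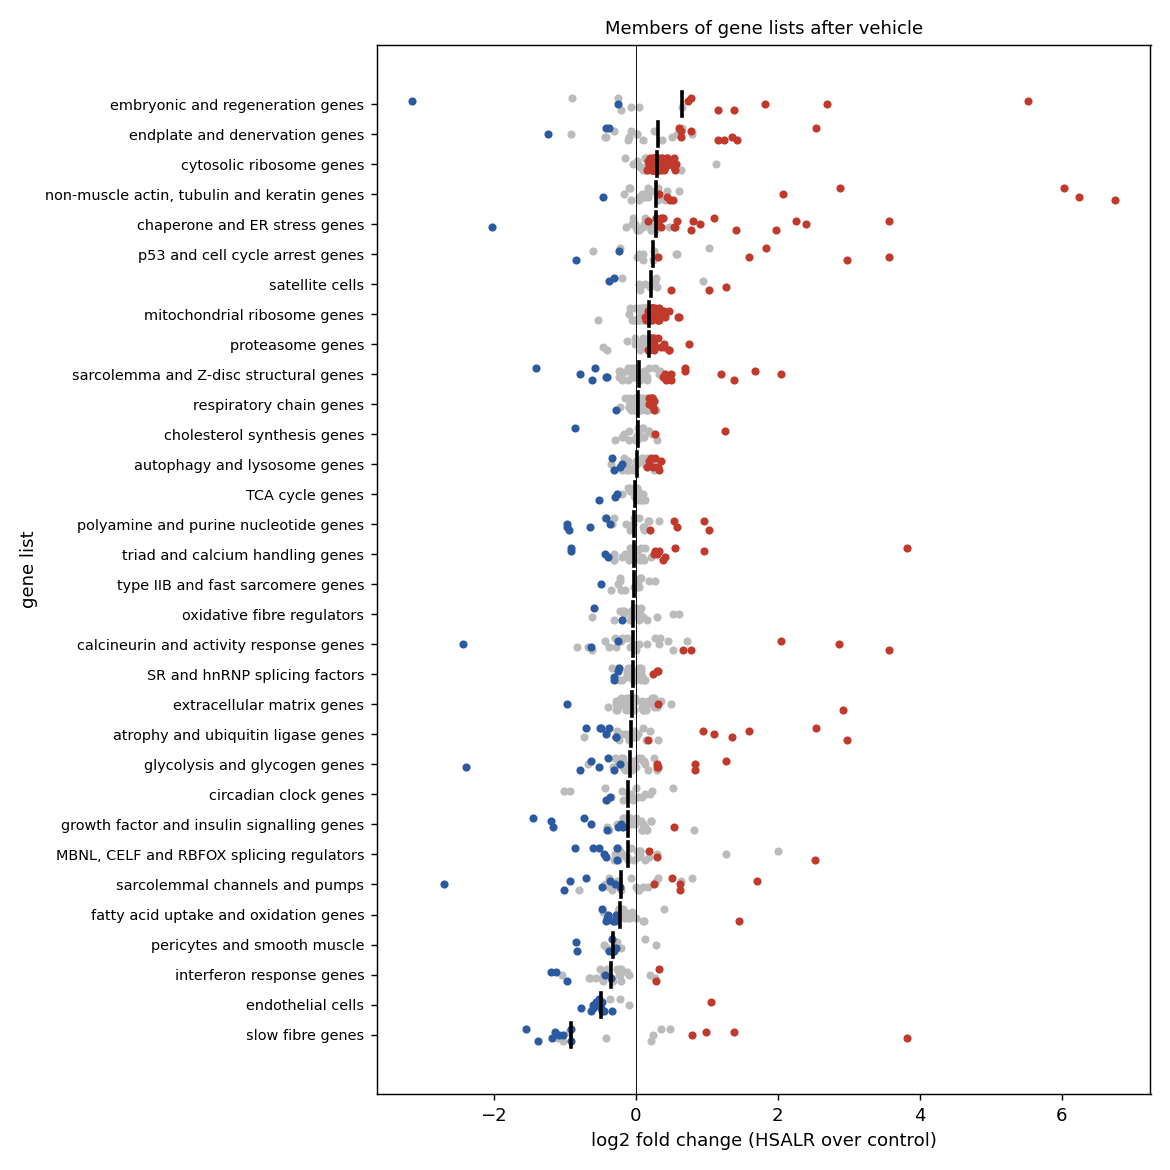
Log2 fold change (HSALR over control, vehicle) of each tested member of 32 gene lists; filled red and blue points passed the test as higher and lower, grey points did not, and the black bar is the median of the list. The medians of the cytosolic ribosome, chaperone, proteasome and mitochondrial ribosome lists lie to the right of 0, each with single members below 0, and the slow fibre list is split.

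Among markers of other cells of the muscle, those of vessels were lower. Of 16 endothelial genes 12 fell and 1 rose, a share of 75.0% lower beside 11.5% of all genes, with a median of -0.48. Their summed level was 1155, 1163 and 1078 normalized CPM in control mice and 941, 809, 840, 1011 and 818 in HSALR mice, so that every HSALR mouse was below every control mouse. *Pecam1*, an adhesion protein of endothelial cells, was at 78.9, 81.3 and 74.1 and at 60.4, 49.8, 55.8, 62.5 and 53.1 (log2 fold change -0.47, SE 0.08, adjusted p = 3.5e-04). *Cdh5*, the endothelial cadherin, fell by 0.49, *Kdr*, the main receptor of vascular endothelial growth factor, by 0.59, and *Vwf*, the von Willebrand factor, by 0.78. *Rgcc*, a cell cycle regulator found in capillaries and in other cells, rose by 1.07. Between 9 and 12 of the 16 fell in every alternative tried, the leave-one-out fits included.

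Of 12 smooth muscle and pericyte markers 6 fell (50% beside 11.5% of all genes) and none rose, with a median of -0.32. *Myh11*, the smooth muscle myosin, fell from 69.2, 74.2 and 51.6 to 33.8, 34.9, 39.8, 39.9 and 34.1, while *Acta2*, the smooth muscle actin, had a log2 fold change of -0.41 (adjusted p = 0.12). Their summed level, 4211, 4158 and 4511 normalized CPM in control mice and 4417, 4391, 4225, 4202 and 4723 in HSALR mice, overlapped between the groups. It was carried by *Des*, which encodes desmin and is also abundant in muscle fibres, at 3155, 3133 and 3526 and at 3582, 3583, 3372, 3436 and 3895. Without *Des*, a sum taken after these values were seen, the other 11 markers came to 1056, 1025 and 985 in control mice and to 836, 808, 853, 766 and 828 in HSALR mice, so that every HSALR mouse was below every control mouse. Without control mouse S445 2 of the 12 fell, and without HSALR mouse S453 or with the epidermal covariate 3 did. Red blood cell genes, another measure of blood in the sample, were not called in any of 6 tested, all with log2 fold changes below 0 (-0.95 to -0.63). Their summed level varied from 1219 to 3123 in control mice and from 273 to 2832 in HSALR mice. The part of blood content in the endothelial values was not tested.

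Of 15 macrophage and monocyte markers 2 rose (13.3% beside 15.4% of all genes), *Cd68* by 0.77 and *Csf1r* by 0.47, and *Adgre1*, which encodes the macrophage antigen F4/80, had a log2 fold change of 0.09 (adjusted p = 0.79). *Cd68* was not called without control mouse S445 (adjusted p = 0.062), and *Csf1r* was called neither without S445 (0.088) nor without S450 (0.055). No lymphocyte marker was called among 4 that could be tested, all 4 with a log2 fold change above 0. The summed level of the list was low, 0.768, 0.905 and 0.883 normalized CPM in control mice and 1.09, 1.01, 1.26, 1.44 and 1.01 in HSALR mice, so that every HSALR mouse was above every control mouse. Of 43 extracellular matrix genes 2 rose and 1 fell, 6.98% beside 26.9% of all genes, and over the alternatives 1 to 7 rose and 1 to 4 fell. *Timp1*, an inhibitor of matrix proteases, rose from 0.526, 0.931 and 1.92 to 11.0, 9.12, 11.3, 6.69 and 4.70 (log2 fold change 2.93, SE 0.40, adjusted p = 9.0e-05). Of 3 neutrophil markers tested 1 rose, *S100a8* (adjusted p = 0.023), a call that was lost without any 1 of the control mice and in 3 other alternatives. The log2 fold changes of the 3 lay between 1.87 and 2.09. Their list summed to between 0.258 and 0.583 normalized CPM in control mice and between 0.530 and 6.69 in HSALR mice, with the groups overlapping. Of 15 markers of fibro-adipogenic cells 1 rose and 1 fell (6.67% each), and of 14 adipocyte markers 1 fell (7.14%), shares below the 15.4% and 11.5% of all genes. None of 11 tendon or 14 Schwann cell markers was called by edgeR at the adjusted threshold. Over the alternatives 0 or 1 tendon marker was higher and 0 to 2 were lower. At an unadjusted p under 0.05 the number was also 0 in the lymphocyte, tendon, Schwann and red blood cell lists, and DESeq2 called 0 in each.

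Markers of myonuclei at the junction with the tendon were mixed. Their list of 7 genes had 3 higher members (42.9% beside 15.4% of all genes) and 2 lower ones (28.6% beside 11.5%), and its sum was 444, 471 and 478 normalized CPM in control mice and 824, 726, 757, 608 and 640 in HSALR mice. The sum was carried by *Itgb1*, an integrin subunit made by many cells, at 276, 275 and 287 and at 477, 458.5, 473, 423 and 436, and by *Ankrd1*. *Col22a1*, the collagen that defines the junction, fell from 29.0, 35.2 and 28.2 to 26.0, 20.1, 24.5, 24.4 and 24.3 (log2 fold change -0.37, adjusted p = 0.036), a call that was lost without control mouse S446 (adjusted p = 0.18) and in 6 other alternatives. The defining marker thus went against the sum of the list.

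Of 30 genes of the interferon response 5 fell (16.7% beside 11.5% of all genes) and 2 rose, with a median of -0.35. *Usp18*, a brake on interferon signalling, fell by 0.97 and *Gbp7*, a guanylate-binding protein, by 1.13, while the widely used marker *Isg15* had a log2 fold change of -0.34 (adjusted p = 0.37). The number of genes that fell ranged from 2 without control mouse S445, where *Usp18* had an adjusted p of 0.079, to 10 without control mouse S450.

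**Figure D4:**
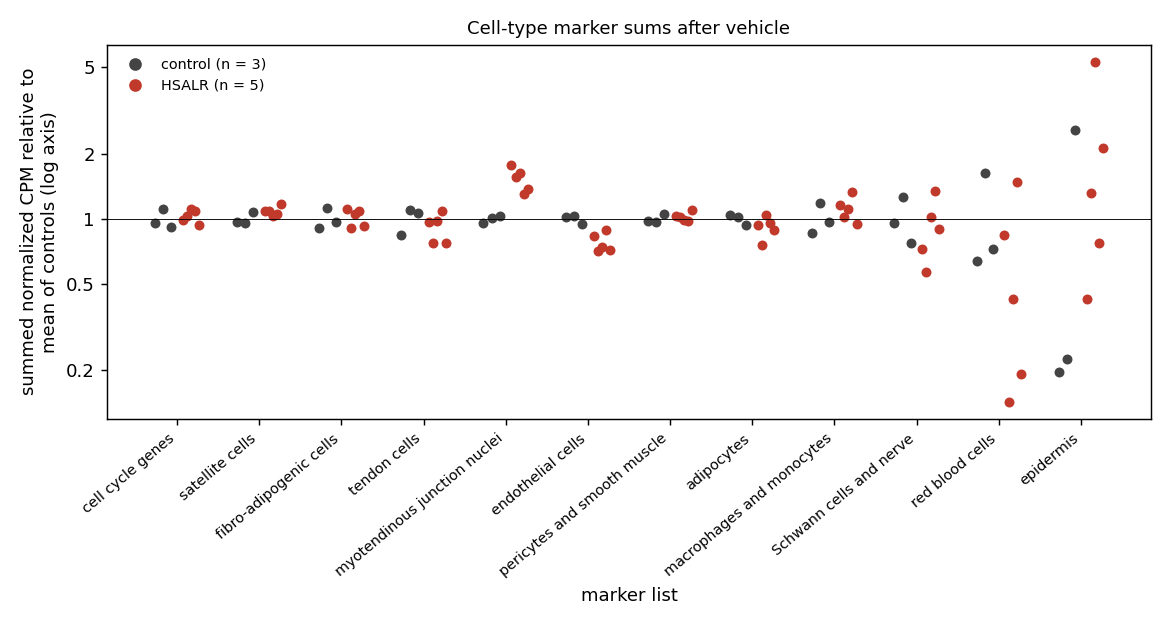
Summed normalized CPM of the markers of each cell type in every vehicle-treated mouse, relative to the mean of the 3 control mice (log axis), for the lists whose sum reached 10 in all mice. The endothelial sums of the 5 HSALR mice lie below and the myotendinous sums above those of the control mice, while epidermal and red blood cell sums vary widely within both groups.

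The genes with the largest differences, chosen over all genes and in part members of the lists above, had varied roles. Only called genes with a mean of at least 200 counts per mouse and no overlap between the groups of mice were ranked, which leaves out, among others, *Mymx* (log2 fold change 5.53) by its low counts and *Nr4a2* (-2.44) by its overlap. The 12 risers with the largest fold changes among those ranked were *Clca4a*, *Krt8*, *Krt18*, *Myo1a*, *Lrtm2*, *Chrna9*, *Ccdc192*, *Epgn*, *Sln*, *Gnal*, *Slc6a19* and *Atf3*, and 10 of them had 0 to 2.32 normalized CPM in each control mouse. *Chrna9*, a nicotinic acetylcholine receptor subunit best known from hair cells of the ear, was at 0.0854, 0.344 and 0.598 in control mice and at 12.7, 18.04, 13.2, 7.87 and 2.55 in HSALR mice (log2 fold change 4.97, SE 0.77, adjusted p = 2.6e-04). *Gnal*, a stimulatory G protein subunit, was at 0.910, 0.701 and 2.32 and at 19.9, 19.7, 15.1, 12.2 and 20.4. *Epgn*, a ligand of the epidermal growth factor receptor, rose by 4.20, and *Slc6a19*, a transporter of neutral amino acids, by 3.68. *Lrtm2*, a leucine-rich repeat membrane protein, lies within *Cacna2d4*, and reads of these overlapping genes may not be separable. The same holds for *Gnal*, *Timp1*, *Acvr2a*, *Atp2a1*, *Ddit3*, *Eif4e3*, *Hspa5*, *Hspb6*, *Hspd1*, *Klhl40*, *Mb*, *Mrpl48*, *Myh7b*, *Myl2*, *Myl4*, *Mylpf* and *Nr4a2*, which overlap other protein-coding genes, *Hspd1* among them with *Hspe1*.

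Among the genes ranked, the 12 that fell most were *Actc1*, *Kcnab1*, *Pfkfb3*, *Chac1*, *Sytl2*, *Pla2g7*, *Gdpd5*, *Slc38a4*, *Hmga2-ps1*, *Six2*, *Kazald1* and *Cdnf*. *Slc38a4*, an amino acid transporter, was at 64.3, 66.1 and 61.3 normalized CPM in control mice and at 27.6, 17.7, 25.6, 15.3 and 17.3 in HSALR mice (log2 fold change -1.63, SE 0.17). *Pla2g7*, a phospholipase that degrades platelet-activating factor, fell by 1.89 and *Sytl2*, which binds vesicles to the membrane, by 1.91. *Six2*, a homeobox factor, was at 27.0, 31.3 and 32.0 and at 11.0, 11.1, 10.4, 8.30 and 9.46, and *Cdnf*, a neurotrophic factor of the endoplasmic reticulum, fell by 1.56. *Hmga2-ps1* is a pseudogene inside *Sdccag8*, so its reads are uncertain.

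The 10 ranked genes with the smallest p-values included *Myo1a*, *Ccdc192* and *Gdpd5* of those just named. *Plekho1*, a pleckstrin homology protein that binds casein kinase 2 and AKT, was at 8.51, 9.54 and 9.39 normalized CPM in control mice and at 60.02, 57.5, 54.7, 56.3 and 61.8 in HSALR mice (log2 fold change 2.67, SE 0.11, adjusted p = 1.1e-09). *Myo1a*, a class I myosin of the intestinal brush border, was at 0.341, 0.319 and 0.217 and at 22.4, 17.9, 18.04, 18.01 and 20.02 (log2 fold change 6.03, SE 0.27, adjusted p = 3.6e-09). *Eif4e3*, a cap-binding protein, was at 24.6, 27.1 and 20.8 and at 80.9, 84.6, 78.9, 78.5 and 84.3. *Vamp1*, a vesicle protein of nerve endings and other cells, was at 24.2, 25.5 and 24.6 and at 8.53, 9.60, 8.06, 9.36 and 9.49. *Lancl1*, *Qsox1*, *Ccdc136*, *Arl6ip5* and *Ccdc192* rose by 1.26, 1.37, 1.78, 1.03 and 4.42, and *Gdpd5* fell by 1.66.

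**Figure D5:**
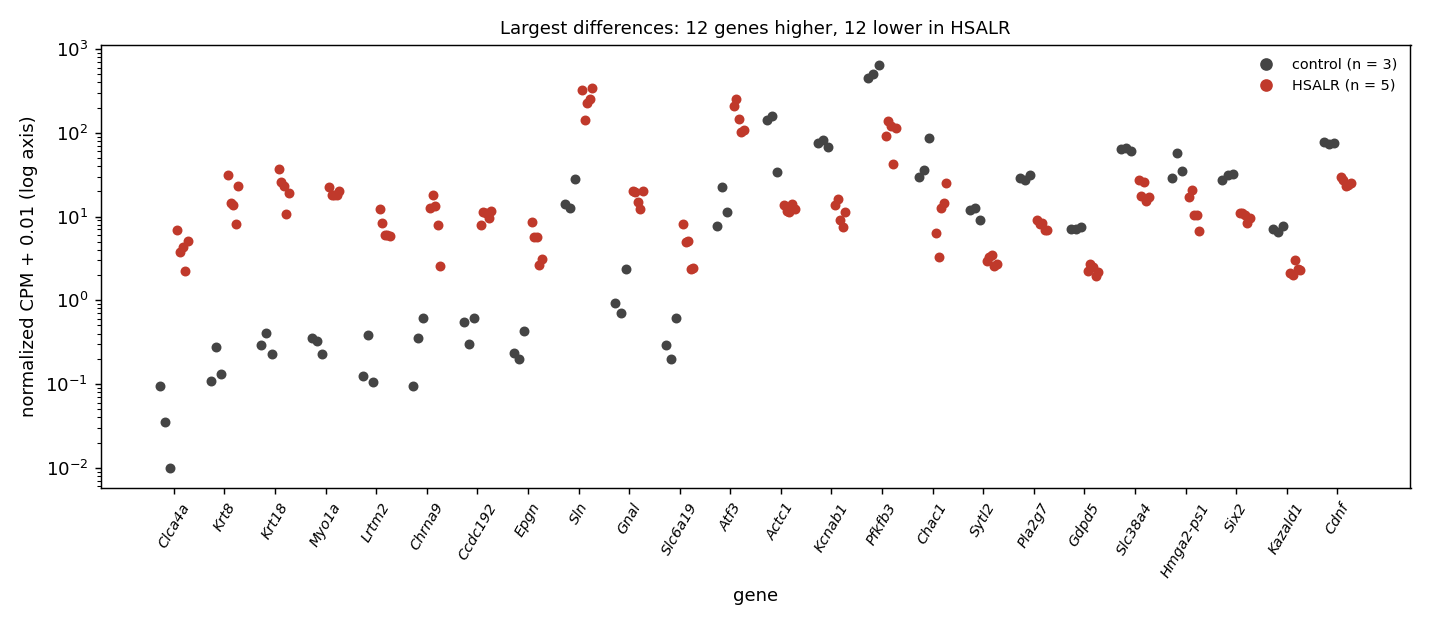
Normalized CPM + 0.01 (log axis) in each vehicle-treated mouse for the 12 genes that rose and the 12 that fell with the largest fold changes. Control and HSALR mice do not overlap in any of the 24 genes, which the rule for choosing them required.

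The AICAR-treated mice are other animals in which the 2 genotypes can be set side by side. Of the 12 risers, 11 were higher in every AICAR-treated HSALR mouse than in every AICAR-treated control mouse, beside 15.0% of all genes tested, and of the 12 genes that fell 10 were lower in every such mouse, beside 11.6% of all. Of all genes called after vehicle, 59.2% of those that rose and 45.8% of those that fell were apart in the same direction after AICAR, and 11 and 17 were apart in the opposite direction. *Atf3* was the riser and *Pfkfb3* and *Chac1* the genes that fell whose groups overlapped after AICAR. Of the slow-fibre genes called after vehicle, the 4 higher ones were all apart in the same direction after AICAR and of the 8 lower ones none was, and of the glycolytic genes 3 of 6 higher and none of 7 lower ones were. Of the 12 endothelial genes called lower 7 were apart in the same direction. In the list of the endplate and of denervated muscle, 4 of the 9 higher genes and all 4 lower ones were. Of the genes called higher, 7 of 19 in the chaperone list, 1 of 5 in the calcineurin and activity list, 3 of 7 in the embryonic list, 41 of 65 in the cytosolic ribosome and 19 of 21 in the proteasome were.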

How the data were processed

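Polyadenylated RNA was sequenced as stranded single-end reads. Per the labels and the study's methods, the authors aligned reads to mm10 with STAR 2.5.2a, reporting a read with several equally good places at 1, and deposited raw counts per RefSeq gene; strand use in counting is not given in the sources used here. Each mouse is 1 library. Here the deposited counts of all 16 libraries were fitted with edgeR 4.0.16 (R 4.3.3; filterByExpr, TMM, quasi-likelihood, no covariates, Benjamini-Hochberg), and the genotypes were contrasted within vehicle. The authors also used edgeR, with a design not given. Alternatives used limma 3.58.1 (voom), DESeq2 1.42.0, other scalings and filters, a length trend, an epidermal covariate and each mouse left out. The test was also run on simulated data, and the outcome is not given here. Genes were named if they were called, did not overlap between groups, had a mean count of at least 200, and were among the 12 with the largest fold changes in each direction or the 10 with the smallest p; up to 4 called members per list, members that define a list and the 10 genes with the most counts per base were added, as were genes chosen after their values were seen. Not every gene the rule gives is described, and some were left out after their calls were seen to be lost under other settings. The 43 lists and the named genes were chosen with earlier results of these data known. Symbols and promoters came from RefSeq (GRCm38.p6). Replicates differed by more than counting noise (chi-square per degree of freedom 34.4 to 138).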

Additional observations from a re-analysis of the deposited data

Results flagged for a closer look

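Among 192 sets of 5 values from the HSALR mice, those of the named genes, the heavy chain shares and the sums of cell type markers, 11 held 1 mouse far from the other 4 (Dixon's criterion at the 95% level), and chance flags about 1 in 20. The low *Myh4* share of 52.7% in HSALR mouse S451 stood against a median of 71.3%. Neutrophil markers summed to 6.69 normalized CPM in HSALR mouse S453, beside a median of 0.999, and the neutrophil marker *S100a8* alone was at 1.334 in that mouse, beside a median of 0.306. In HSALR mouse S452, *Atp2a2* was at 1138, *Calcr* at 0.911, *Col22a1* at 20.1 and *Notch3* at 29.2 normalized CPM. In HSALR mouse S458, *Adgre1* was at 9.49 and *Ttn* at 6048. *Lancl1* was at 43.4 in HSALR mouse S453, and *Mki67* at 0.880 in HSALR mouse S459.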

How the results depend on the processing

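Over 19 alternatives, the number of genes called stayed within 1.5 times that reported, with the exception of genes lower without control mouse S445 (1095). With 1 mouse left out, 1095 to 1838 genes were lower and 1731 to 2255 higher. Of 146 called genes that the naming rule gives, 100 kept call and direction wherever a value could be had, and 46 lost the call in 1 alternative or more. Of 137 called genes named in the text, none changed direction and 32 lost the call in 1 alternative or more. The text describes more of the stable genes. *Actg1*, *Bax*, *Cpt1b*, *Cryab*, *Igf1*, *Myod1*, *Rgs5* and *Smox* were called but were left undescribed there after their calls were seen to be lost. *Hspb2*, *Celf1* and *Krt5* were left out there as well. With a mouse left out, the difference in heavy chain share ranged from 13.3 to 18.005 percentage points for *Myh1*, -14.8 to -8.90 for *Myh4*, -4.31 to -0.667 for *Myh7* and -1.79 to 0.115 for *Myh2*. Without any 1 control mouse, or any 1 HSALR mouse other than S451, no chain had an adjusted p under 0.05, and with fewer mice the smallest p that the exact test allows is higher. Of the named genes that were not called, 8 were called in 1 alternative or more: *Tnni1* and *Tnnt3* in 8 each, *Ddit3*, *Fbxo32* and *Tnnc2* in 2 each, and *Dlk1*, *Hspd1* and *Meg3* in 1 each. Others changed sign. With the length trend removed, the log2 fold change was -0.0384 for *Aldoa*, -0.12 for *Mylpf*, -0.0815 for *Pvalb*, -0.13 for *Tnni2* and 0.0481 for *Myh8*; with the epidermal covariate it was 0.0373 for *Myh8*, -0.0212 for *Ppargc1a* and -0.0205 for *Celf1*; with upper-quartile scaling it was -0.000757 for *Celf1*; with limma it was 0.0333 for *Myh3* and -0.000729 for *Ppargc1a*. With a mouse left out it ranged from -0.0633 to 0.30 for *Adgre1*, -0.0634 to 0.11 for *Aldoa*, -0.0469 to 0.0620 for *Celf1*, -0.0188 to 7.85 for *Krt5*, -0.0056 to 0.28 for *Fos*, -0.0167 to 0.72 for *Myf5*, -0.51 to 0.64 for *Myh3*, -0.20 to 0.0407 for *Myh8*, -0.0985 to 0.17 for *Mylpf*, -0.17 to 0.15 for *Ppargc1a*, -0.0764 to 0.21 for *Pvalb*, -0.0370 to 0.13 for *Tnni2*, -0.16 to 0.34 for *Trib3* and -0.0254 to 0.36 for *Trim63*. The difference in the summed level of smooth muscle and pericyte markers, 98.6 normalized CPM higher in HSALR mice, was -204 without *Des*, a sum added after seeing the data; for the other values the cause was not tested. With 3 control mice, each weighs heavily on the spread. No paired analysis was possible because the mouse numbers are not shared between the groups.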

Other observations

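Values of 6 imprinted genes, which are expressed from 1 parental copy, are given here as single values; they were chosen after their values were seen and say nothing of imprinted genes as a group. *Rian*, a non-coding RNA of the imprinted region around *Dlk1*, was at 6.13, 7.26 and 4.28 normalized CPM in control mice and at 24.0, 25.1, 40.6, 32.5 and 47.6 in HSALR mice (edgeR quasi-likelihood test, log2 fold change 2.53, adjusted p = 7.0e-04). *Mirg* of the same region rose by 2.59 on the log2 scale, while *Meg3* (log2 fold change 0.74, adjusted p = 0.11) and *Dlk1* (-0.89, adjusted p = 0.12) did not pass the test. *Rian* and *Meg3* overlap the protein-coding gene *Rtl1*, so their reads may not be separable from it. *Grb10*, an adaptor that dampens insulin signalling, fell by 1.22, and *Peg10*, a retrotransposon-derived gene, rose by 1.03.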
